A study of Mus musculus with 6 samples.

Results

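Nocturnin (Noct) and 4 transcription factors of the circadian clock, Arntl, Npas2, Bhlhe40 and Tef, were followed in mouse epididymal white fat after stimulation of the beta3-adrenergic receptor. The 5 genes were taken by gene symbol from the platform annotation, out of 13409 named genes on the array, and each was represented by 1 probe. They had been picked with their ratios on these same arrays in view, so those ratios are given as a description, without a test.

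Each array compared RNA of male C57BL/6J mice, 12 weeks old, killed 3 hr after an injection of CL-316,243 at 1 mg per kg body weight with RNA of mice of the same strain, sex and age killed 3 hr after saline. CL-316,243 is an agonist of the beta3-adrenergic receptor, which raises cAMP in fat cells and triggers lipolysis. Each treatment was represented by a single pool of RNA from 6 mice, and both pools were hybridised together 6 times on two-colour arrays, each from its own slide lot. Channel 2 held the CL-316,243 pool on arrays 4 to 6 and channel 1 held it on arrays 1 to 3. The arrays are therefore repeat measurements of 1 pair of pools. Errors and p-values below cover the spread between arrays, not between mice, and their number limits the precision. The time of day of injection and killing, which bears on clock genes, was not given in any source used here.

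The values are log ratios of the pools, taken as log2. Were they natural logs, every fold change below would be larger. The pool in the numerator is not stated. The CL-316,243 pool is the likely numerator, because every array is titled for tissue of mice given CL-316,243 whichever channel that pool was in. A gene called "higher" below had more signal in the numerator pool, one called "lower" had less, and all directions turn if the numerator is the saline pool. Only ratios were available, so the absolute level of each transcript is unknown, and in whole tissue less RNA per cell and fewer cells of a type cannot be told apart.

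Columns of the table were empty only at their ends, from 1 row on array 6 to 724 rows on array 2, and rows did not correspond between arrays. Columns were therefore aligned to probe numbers with a model in which spots can only be lost, and a value was kept where its position had a posterior probability of at least 0.95. This kept 64.3% of probes on array 2 and 92.5% to 99.8% on the others. Over probes, which are not independent replicates, arrays of the same dye orientation then had a mean Spearman rho of 0.282 and arrays of opposite orientation one of 0.110 (lowest -0.0129, highest 0.177). The placement uses likeness between arrays and so raises it. Errors and p-values below come from the same placed values, so they can be too small. By how much was not tested. Among markers of other tissues, all 5 tested seminal vesicle transcripts were lower in the numerator pool (Svs2, Svs4, Svs5, Svs6 and Pate4, log2 ratios from -5.47 to -1.16). The call of Svs4 was lost without array 1, 2, 4 or 5 (limma adjusted p from 0.0713 to 0.131) and in each orientation alone. Svs6 did not pass in the channel 1 orientation alone (adjusted p = 0.163), nor Pate4 in the channel 2 orientation alone (0.0581). Svs2 and Svs6 could not be tested without array 1 or 3. Of 7 tested adipocyte, 5 macrophage, 6 endothelial, 2 mesothelial, 6 stromal and 2 epididymal markers none passed the limma test, against 4, 1, 2, 0, 1 and 0 at an unadjusted p under 0.05. Over all genes 3.05% passed and 18.4% had an unadjusted p under 0.05. Of 4 brown fat markers Dio2, a thyroid hormone deiodinase, passed and was higher (1.18). Its call was lost without array 5 (limma adjusted p = 0.0534) and in the channel 1 orientation alone (0.92, adjusted p = 0.237). The part of tissue makeup in the ratios of the clock genes was not tested.

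The mammalian clock is a feedback loop of transcription factors. ARNTL (also called BMAL1) pairs with CLOCK or its relative NPAS2 and activates genes through E-box sequences, among them the Per and Cry genes, whose proteins then block the activators. BHLHE40 (also called DEC1) competes for the same E-boxes, REV-ERB and ROR receptors set the transcription of Arntl, and the PAR bZIP factors TEF, DBP and HLF carry the rhythm to D-box genes. Noct encodes nocturnin, a rhythmic relative of the CCR4 deadenylases that removes a phosphate from NADP(H). In mice its loss protects from diet-induced obesity.

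The promoters of the genes are shown because the clock genes are linked to each other through short DNA elements near their start sites. RefSeq promoters (build GRCm38.p6, windows around a transcription start) matched 4 of the 5 genes, and Bhlhe40 was not matched. Both strands were searched for the E-box CACGTG, its variant CACGTT, the cAMP response element TGACGTCA and its core TGACG, the D-boxes TTATGTAA and TTACGTAA, and the ROR element TAGGTCA. The core TGACG also lies inside TGACGTCA. Capitals mark the matches.
Noct, chr3:51224197-51224496, plus strand: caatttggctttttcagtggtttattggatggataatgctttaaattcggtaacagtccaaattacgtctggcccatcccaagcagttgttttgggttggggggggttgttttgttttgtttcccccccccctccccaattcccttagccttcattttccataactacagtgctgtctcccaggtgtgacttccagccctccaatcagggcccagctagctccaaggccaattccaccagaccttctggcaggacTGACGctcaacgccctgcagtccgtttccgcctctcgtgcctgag
Tef, upstream start, chr15:81802423-81802722, plus strand: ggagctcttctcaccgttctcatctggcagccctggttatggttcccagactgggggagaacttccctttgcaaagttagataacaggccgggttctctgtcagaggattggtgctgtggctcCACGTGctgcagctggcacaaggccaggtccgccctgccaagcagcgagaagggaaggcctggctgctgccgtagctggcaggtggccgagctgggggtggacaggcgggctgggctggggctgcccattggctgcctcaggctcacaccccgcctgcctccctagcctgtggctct
Tef, downstream start, chr15:81811164-81811463, plus strand: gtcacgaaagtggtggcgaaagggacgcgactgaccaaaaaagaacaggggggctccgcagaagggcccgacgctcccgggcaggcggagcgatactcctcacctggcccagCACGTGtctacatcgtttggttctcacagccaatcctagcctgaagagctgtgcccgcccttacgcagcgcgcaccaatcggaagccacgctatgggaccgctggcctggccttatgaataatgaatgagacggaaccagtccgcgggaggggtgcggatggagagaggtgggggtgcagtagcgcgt
Arntl, downstream start, chr7:113207261-113207560, plus strand: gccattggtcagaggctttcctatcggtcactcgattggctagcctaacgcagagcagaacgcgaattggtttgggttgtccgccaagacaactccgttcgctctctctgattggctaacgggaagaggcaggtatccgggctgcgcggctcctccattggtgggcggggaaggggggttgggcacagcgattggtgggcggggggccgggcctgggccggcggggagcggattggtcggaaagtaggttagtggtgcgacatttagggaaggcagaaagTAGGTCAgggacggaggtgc
Both Tef promoters held 1 E-box, at positions -127 and -138 from the start, and 7.15% of 32851 promoters held one. The Arntl promoter shown held 1 ROR element, 31 bases after the start, found in 2.61% of promoters. Noct held the core TGACG 6 bases after its start, as 20.8% of promoters did, and no full TGACGTCA, which 1.79% held. The promoter of Npas2 and the other one of Arntl held none of these letters in their windows. A match of letters is a description of the sequence, not a measured binding site.

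In the same build the genes lie on 5 chromosomes: Noct at chr3:51224447-51251654 (probe 17069), Arntl at chr7:113178471-113314126 (probe 5026), Npas2 at chr1:39193702-39363240 (probe 880), Bhlhe40 at chr6:108660629-108666925 (probe 4087) and Tef at chr15:81802673-81826863 (probe 3051). The part of each transcript that its probe reads was not given in any source used here.

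Noct had by far the largest ratios of the 5 genes. They were 3.22, 3.53 and 1.73 on arrays 4, 5 and 6 and 3.73, 3.91 and 2.37 on arrays 1, 2 and 3. All 6 arrays placed it higher in the numerator pool, from 3.31-fold on array 6 to 15.0-fold on array 2, with arrays 3 and 6 clearly below the other 4. The fitted log2 ratio was 3.08 ± 0.26 (SE, n = 6 arrays), or 8.46-fold, which ranked 5 among 12907 genes from the highest. On single arrays its rank from the highest was 21, 9 and 35 on arrays 4, 5 and 6 and 5, 4 and 35 on arrays 1, 2 and 3. Over the 275 other genes that passed the limma test and were measured on all arrays, the median ratio in the direction of the fit was 0.582 on array 6 and 0.596 on array 3, against 0.751 to 0.860 on the other 4. Over all values the SD was 0.417 on array 6, the lowest of all arrays, and 0.456 on array 3. The highest was 0.788, on array 2. The inferred shift of the column was constant over at least 100 probes on each side of the Noct probe on all 6 arrays.

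**Figure D1:**
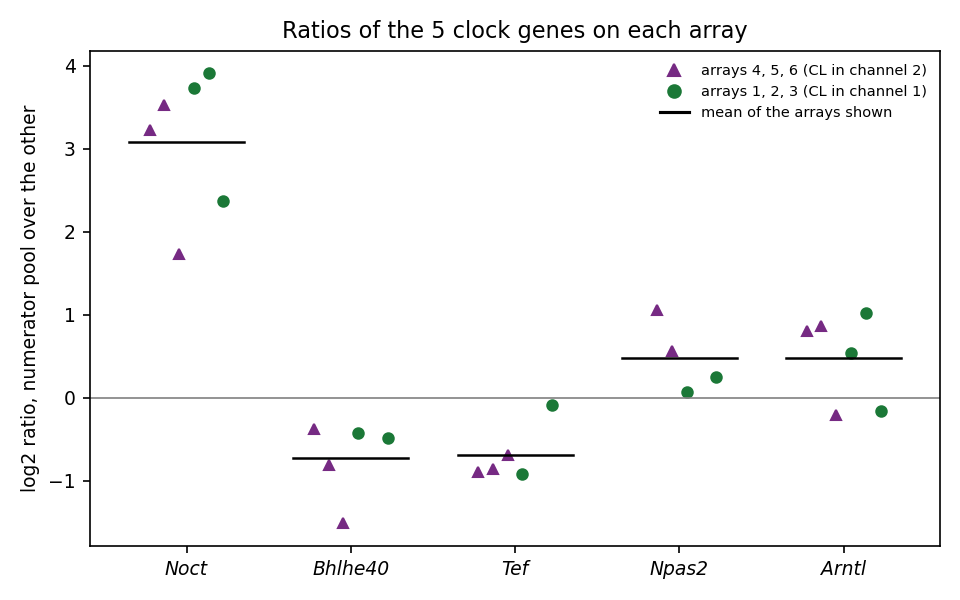
Log2 ratio of the numerator pool over the other on each array for Noct, Bhlhe40, Tef, Npas2 and Arntl. Triangles are arrays with the CL-316,243 pool in channel 2, circles arrays with it in channel 1, and bars the plain mean of the arrays with a kept value (n = 6, 5, 5, 4 and 6). Noct lies between 1.73 and 3.91, Bhlhe40 and Tef lie below 0 on every array shown, Npas2 lies above 0, and Arntl is on both sides of 0.

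The activators of the loop had smaller ratios. Arntl, the obligate partner in the activator complex, was at 0.80, 0.86 and -0.21 on arrays 4, 5 and 6 and at 0.54, 1.02 and -0.15 on arrays 1, 2 and 3. It was positive on 4 of 6 arrays, and the 2 negative ones were arrays 3 and 6, 1 in each dye orientation, where the ratios of Noct were also smallest. The fitted ratio was 0.48 ± 0.18 (SE, n = 6), or 1.39-fold. Its highest value, on array 2, had a posterior of 0.978, and the inferred shift held over only 21 probes below and 6 above. At a posterior limit of 0.99 that value was not kept and the ratio was 0.34. Npas2, which can take the place of CLOCK, had kept values on 4 arrays only, 1.06 and 0.56 on arrays 5 and 6 and 0.07 and 0.25 on arrays 1 and 3. All 4 were positive, and the arrays of the channel 2 orientation (5 and 6) lay above those of the channel 1 orientation (1 and 3). The fit gave 0.48 ± 0.15 (SE, n = 4), and 0.29 without array 5. On array 4 the likeliest position of the Npas2 probe, at a posterior of 0.836, held a value of -0.27, which was not kept. The fitted ratios of Arntl and Npas2 were within 1 SE of each other.

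Bhlhe40 and Tef were on the other side of 0. Bhlhe40, the E-box repressor, was at -0.38, -0.80 and -1.51 on arrays 4, 5 and 6 and at -0.43 and -0.49 on arrays 1 and 3. All 5 kept values were negative, and array 6 stood apart from the other 4. The fitted ratio was -0.68 ± 0.17 (SE, n = 5), 1.60-fold lower, and without array 6 it was -0.53. On array 6 the nearest inferred lost spot lay 58 probes above that of Bhlhe40, and on array 4 it lay 17 probes below. Tef, an activator of D-box genes, was at -0.89, -0.86 and -0.69 on arrays 4, 5 and 6 and at -0.91 and -0.09 on arrays 1 and 3. Array 3 was near 0 and the other 4 lay close together. The fit gave -0.66 ± 0.15 (SE, n = 5), 1.58-fold lower, and the values of Bhlhe40 and Tef overlapped. Among all genes Bhlhe40 ranked 119 and Tef 140 from the lowest, while Npas2 ranked 532 and Arntl 554 from the highest.

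Of the 5 genes, 4 kept a single sign over their arrays, against 14% of all genes tested, and 1, Noct, lay past an adjusted p of 0.05 in the limma fit, against 3.05% of all genes (1.88% higher and 1.17% lower). Since these ratios chose the genes, nothing is read from either count.

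The difference between dye orientations was not used to choose the genes and was tested as a term of the same fit. For Noct the mean was 2.83 over the arrays of the channel 2 orientation and 3.34 over those of the channel 1 orientation, a difference of -0.51 (95% interval -1.66 to 0.64, limma adjusted p = 0.728). For Npas2 the means were 0.81 and 0.16 in the same order, a difference of 0.65 (-0.024 to 1.33, adjusted p = 0.497). Bhlhe40 (-0.44, from -1.20 to 0.32, adjusted p = 0.65), Tef (-0.31, from -0.97 to 0.35, adjusted p = 0.706) and Arntl (0.017, from -0.80 to 0.84, adjusted p = 0.989) did not pass either. Of all genes, 1 of 12907 passed this test (0.00775%). For 4 of the 5 genes the interval reached beyond 0.3 in both directions. The difference of Bhlhe40 was -0.13 without array 6.

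Of 17 other genes of the core loop listed, 13 had a named probe and 10 had enough kept values to be tested, and none passed the limma test, against 3.05% of all genes. Per3 and Cry2, 2 of 10, had an unadjusted p under 0.05, against 18.4% of all genes. The median ratio of the 10 was -0.066, beside -0.012 over all genes tested, and 4 of 10 ratios were positive, beside 47.7% of all genes. Per3, a period repressor, was negative on all 5 arrays (-0.46 ± 0.17 SE, limma adjusted p = 0.212), with a value of -1.34 on array 4 and a fitted ratio of -0.29 without it. Cry2, a cryptochrome repressor, was at 0.33 ± 0.13 (n = 5, adjusted p = 0.219), with means of -0.037 in the channel 2 orientation and 0.70 in the channel 1 orientation. Nr1d2, the REV-ERB beta repressor, was at -0.28 ± 0.16 and negative on 5 of 6 arrays (adjusted p = 0.381), at -0.13 without array 4 and -0.45 without array 5. Nr1d1, REV-ERB alpha, was at 0.083 ± 0.13 with 3 arrays on each side of 0, and Rora, the activator that binds the same element, at 0.13 ± 0.19. The remaining 5 lay between -0.12 and 0.021. They were Nfil3, a repressor at D-boxes (-0.12), Arntl2, a paralogue of Arntl (-0.092), Per2 (-0.067), Bhlhe41, the paralogue of Bhlhe40 (-0.066), and Cry1 (0.021). The sign changed with 1 array left out for Nr1d1 (-0.040 without array 3), Cry1 (-0.13 without array 4) and Bhlhe41 (0.054 without array 2 and 0.026 without array 5). The paralogue pairs were set side by side without a test. Bhlhe41 had a positive value on 2 of 6 arrays where Bhlhe40 had none on 5, and Arntl2 a positive one on 1 of 6 where Arntl had 4.

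Clock, Per1 and Dbp could not be tested, because their probes, numbers 4511, 4584 and 4497, lie in a stretch where arrays 2 and 3 gave no position above the posterior limit. Per1, a period repressor whose promoter is a known target of CREB, was at 0.59, 0.67 and 0.24 on arrays 4, 5 and 6 and at 0.84 on array 1. Dbp, the PAR bZIP relative of Tef, was between -1.11 and -0.84 on arrays 4, 5 and 6 and at -0.31 on array 1. Clock was at 0.66, 0.46 and -0.081 on arrays 4, 5 and 6 and at 0.98 on array 1. All 4 kept values of Per1 were positive, all 4 of Dbp negative and 3 of 4 of Clock positive. With positions kept at a posterior of 0.5 or more, Per1 had values on all 6 arrays and passed (0.60 ± 0.11 SE, limma adjusted p = 0.0262). Of 13390 genes tested at that limit 406 passed, and Dbp, though tested, did not. At that limit Dbp also had values of -4.02 on array 2 (posterior 0.846) and -0.53 on array 3 (0.515), so it was negative on every array. In a fit of the 3 arrays with the CL-316,243 pool in channel 2 alone, Dbp passed (-0.98 ± 0.15 SE, adjusted p = 0.0175). Of 13391 genes tested there 219 passed, and Per1, though tested, did not.

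**Figure D2:**
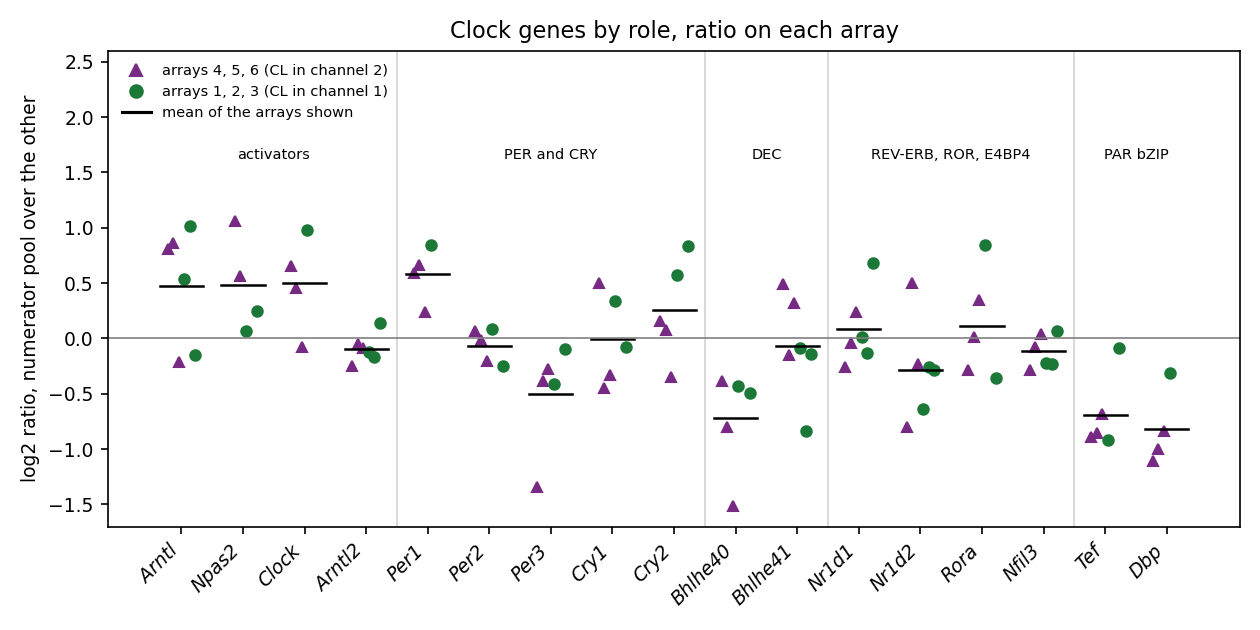
Log2 ratio of the numerator pool over the other on each array for 17 clock genes with a named probe, grouped by role. Symbols are as in the plot of the 5 genes, and bars are plain means of the kept values, of which there are 4 to 6 per gene. Arntl, Npas2, Clock and Per1 have means of 0.48 to 0.58, Bhlhe40, Per3, Tef and Dbp have means of -0.81 to -0.50, and the other genes lie closer to 0.

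Set out by role, the kept values of the 3 activator genes Arntl, Npas2 and Clock averaged 0.48, 0.48 and 0.50, while Arntl2 averaged -0.092 and Rora 0.11, and those of the PAR bZIP genes Tef and Dbp -0.69 and -0.81. The repressors were on both sides, with Bhlhe40 at -0.72 and Per3 at -0.50 but Per1 at 0.58 and Cry2 at 0.26. These are plain means over the 4 to 6 arrays with a kept value, with no test of the groups. For Clock, Per1 and Dbp they cover arrays 4, 5 and 6 and, of the channel 1 orientation, array 1 alone. Arntl, Npas2, Bhlhe40 and Tef were picked with their ratios in view, so nothing is read from how the roles line up.

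The genes whose values were nearest to each of the 5 were found by the root mean square distance of the log2 ratios over arrays, among genes with a value on all 6. For Noct these were Hilpda, a lipid droplet protein (distance 0.737), the chemokine Cxcl1 (0.944) and the TNF receptor family member Tnfrsf12a (1.02), out of 7821 genes. Hilpda lay within 0.05 of Noct on arrays 1, 2 and 5, at 3.72, 3.92 and 3.57, and above it on the other 3. For Arntl the nearest were Wdr43 (0.175), 2810471M01Rik (0.196) and Oxnad1 (0.237). For Bhlhe40, over 5 arrays, they were Trrap (0.134), Nbas (0.149) and Eci2 (0.236), and for Tef Hmgn3 (0.128), Lrfn1 (0.149) and Smc3 (0.161). For Npas2, over 4 arrays, they were Tmem200a (0.115), 4933417G07Rik (0.141) and Tpx2 (0.146).

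**Figure D3:**
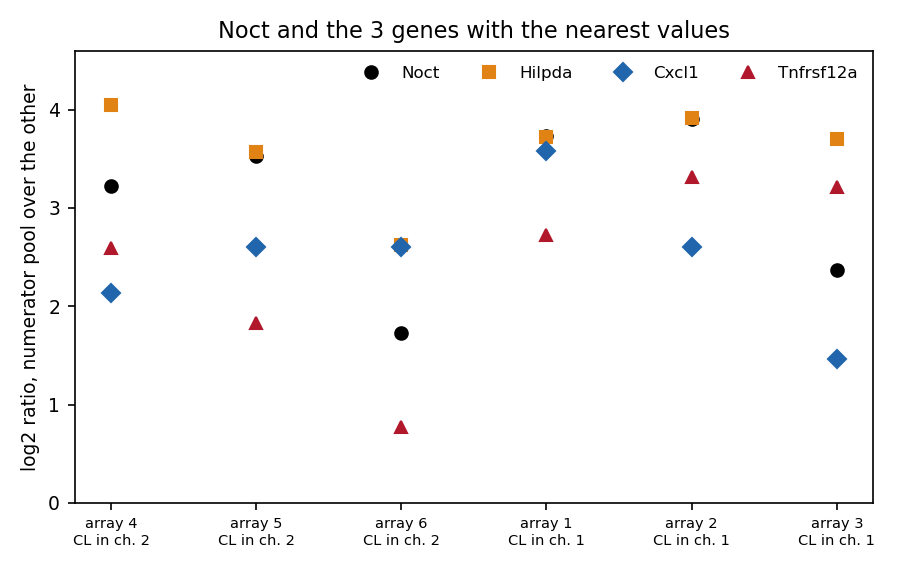
Log2 ratio of the numerator pool over the other on each array for Noct and for Hilpda, Cxcl1 and Tnfrsf12a, the 3 genes with the nearest values. Noct and Hilpda coincide on arrays 1, 2 and 5, and both have their lowest value on array 6 (1.73 and 2.63).

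Genes that carry cAMP signals to the clock were listed because Per1 and other clock genes are induced through CREB. Of 9 tested none passed the limma test, against 3.05% of all genes, and 4 had an unadjusted p under 0.05, against 18.4% of all genes, with a median of 0.14 beside -0.012 over all genes. The count was 1 at a posterior limit of 0.5 or 0.99, with 1 probe per gene, with arrays scaled to 1 spread or with no dye term. It was 2 with array weights and 0 among genes with values on all arrays. Crem, which encodes the cAMP-induced repressor ICER, was at 1.05 ± 0.27 (SE, n = 5, limma adjusted p = 0.083) and Sik1, a kinase that restrains the CREB coactivators, at 0.67 ± 0.15 (n = 5, adjusted p = 0.0514). Both were positive on all 5 arrays that measured them.

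Of 16 tested genes for proteins that modify clock proteins, 1 passed, against 3.05% of all genes, and the median was 0.016. Sirt1, a deacetylase that acts on BMAL1 and PER2, was lower (-0.63 ± 0.12 SE, n = 5, limma adjusted p = 0.0269, negative on 5 of 5 arrays). Its call was lost without array 4 (-0.62, adjusted p = 0.0749) or array 5 (-0.60, adjusted p = 0.114). Sirt1 could not be tested without array 1 or 3. The call was also lost in the channel 1 orientation alone (-0.49, limma adjusted p = 0.4). Nampt, the enzyme that makes NAD from nicotinamide and a known E-box gene, was at -0.65 ± 0.18 with all 6 arrays negative (adjusted p = 0.0872), from -0.14 to -1.73. Csnk1a1, a casein kinase, was at 0.32 ± 0.11 with 3 of 6 arrays positive (adjusted p = 0.148). The positive ones were those of the channel 1 orientation (mean 0.70, against -0.066 in the channel 2 orientation). Its orientation term had a limma adjusted p of 0.398.

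Of 13 tested clock output genes 3 passed, all higher, against 1.88% of all genes that passed higher, and the median was 0.020. All lists were chosen with earlier results of these data known, so nothing is read from the count of any list. They were the cell cycle inhibitor Cdkn1a (1.45 ± 0.27 SE, n = 5, limma adjusted p = 0.0285), the coactivator Ppargc1a (0.77 ± 0.16, n = 6, adjusted p = 0.0359) and the growth regulator Myc (0.72 ± 0.15, n = 5, adjusted p = 0.0422). All 3 had positive values alone. None of the calls held without array 5 (adjusted p = 0.105 for Cdkn1a, 0.0886 for Ppargc1a and 0.152 for Myc). That of Ppargc1a was also lost without array 1, 2 or 4, and that of Myc without array 4 or 6 and at a posterior limit of 0.5 (adjusted p = 0.0545). Cdkn1a and Myc could not be tested without array 1 or 3. In the channel 2 orientation alone Cdkn1a (adjusted p = 0.0693) and Ppargc1a (0.0776) did not pass, and in the channel 1 orientation alone none of the 3 did. Pparg, the master regulator of fat cells, was at -0.47 ± 0.11 with 5 of 5 arrays negative (adjusted p = 0.0656), and Lpin1, a phosphatidate phosphatase, at -0.31 ± 0.22 with 3 of 6 negative (adjusted p = 0.497). The negative values of Lpin1 were those of the channel 2 orientation (mean -1.09, against 0.48 in the channel 1 orientation). Its orientation term had a limma adjusted p of 0.398.

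Among 23 tested nuclease relatives of Noct and genes of deadenylation, the shortening of poly(A) tails, 2 passed, both higher, against 1.88% of all genes that passed higher, and the median was 0.0074. Btg2 (1.14 ± 0.16 SE, n = 5, limma adjusted p = 0.00745) and Btg1 (0.73 ± 0.11, n = 6, adjusted p = 0.00829) encode antiproliferative proteins that bind the CCR4-NOT complex. Btg1 did not pass without array 5 (0.67, adjusted p = 0.0526). Btg2 could not be tested without array 1 or 3. In the channel 1 orientation alone neither Btg1 (0.64, limma adjusted p = 0.183) nor Btg2 (0.98, adjusted p = 0.182) passed. Tob1, of the same family, was at 0.51 ± 0.15 with all 5 arrays positive (adjusted p = 0.109). Cnot6l, a CCR4 deadenylase of the same nuclease family as nocturnin, was at -0.50 ± 0.17 with all 5 arrays negative (adjusted p = 0.164).

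Of 11 tested enzymes of NADP metabolism 1 passed, against 3.05% of all genes. Idh1, the cytosolic isocitrate dehydrogenase that makes NADPH, was lower (-0.76 ± 0.14 SE, n = 4, limma adjusted p = 0.0294, negative on 4 of 4 arrays). A fit without a dye term gave the same ratio with an adjusted p of 0.0653. Idh1 could not be tested without array 1, 3, 5 or 6, so its call was not checked against the loss of any array that measured it. In the channel 1 orientation alone Idh1 was at -0.42 (limma adjusted p = 0.441), and in the channel 2 orientation alone at -1.10 (adjusted p = 0.0435). The list's median was -0.056. Me1, malic enzyme, was at 0.69 ± 0.17 with 5 of 6 arrays positive (adjusted p = 0.0686), and Idh2, the mitochondrial isocitrate dehydrogenase, at -0.53 ± 0.14 with 5 of 5 negative (adjusted p = 0.0785). Of 12 tested bHLH-PAS relatives of Arntl and Npas2 none passed, against 3.05% of all genes, and 3 had an unadjusted p under 0.05, against 18.4%. With array weights 2 passed, when 925 of all 12907 genes did. The coactivator Ncoa1 (-0.49 ± 0.14, adjusted p = 0.109) and Ahrr, the aryl hydrocarbon receptor repressor (0.41 ± 0.11, adjusted p = 0.0712), had the largest ratios.

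**Figure D4:**
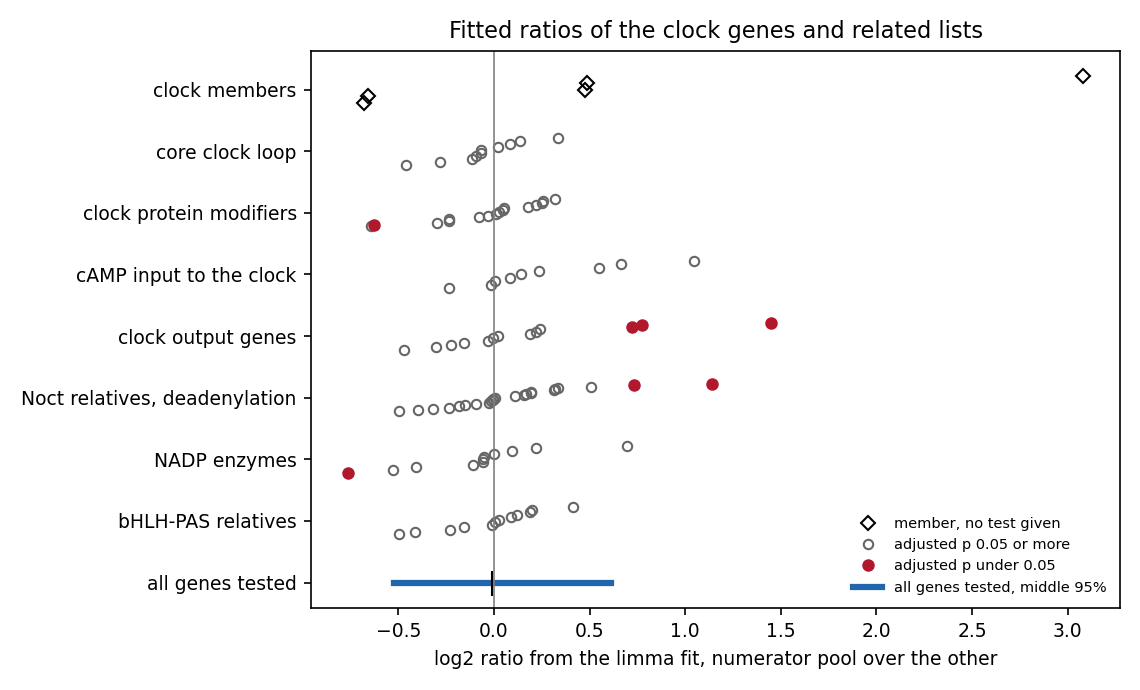
Fitted log2 ratio of the numerator pool over the other for the 5 clock genes (diamonds, no test given) and for the tested genes of 7 related lists, filled where the limma adjusted p is under 0.05. The blue line spans the middle 95% of all 12907 genes tested, from -0.52 to 0.61. Noct lies far outside it at 3.08, Bhlhe40 (-0.68) and Tef (-0.66) lie below it, and Npas2 and Arntl (0.48 each) lie within it.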

How the data were processed

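Pooled cDNA carried fluorescein or biotin, read as Cy3 and Cy5 after tyramide signal amplification, and was scanned on a ScanArray 5000 and quantified with QuantArray 3.0, per the labels. The deposited values are log ratios, taken as log2, which the authors scaled by 1 factor per dye pair and smoothed by LOWESS, per the labels. No source used here gives the log base, the numerator, any background correction or why spots were dropped. Without intensities no filter on dim spots could be set.

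Rows were placed on probe numbers with a hidden Markov model (normal scores clipped at 3, a lost spot followed by another with probability 0.5, 3 rounds, the best of 14 starts by log-likelihood). This step was chosen after seeing the data, on top of the written design. Names came from the platform annotation: 14711 probes had 1 symbol, 6 had several and 4483 had none, and 14416 matched a current gene record. Probes of a gene were averaged. Genes with at least 4 values, 2 per orientation, entered limma 3.58.1 (R 4.3.3) with orientation as a term and Benjamini-Hochberg adjustment over all genes (threshold 0.05). The placement was run on simulated columns with fewer probes, fewer lost spots in total and, where arrays shared a signal, closer likeness than here. The limma fit was run on simulated ratios with independent noise and no placement step. These runs do not measure the error of both steps together on these data.

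The genes and lists were chosen with earlier results of these data known. Named were the 5 genes, the measured core loop genes, in each other list those past the threshold and the 2 largest that were not, the 3 nearest genes, and markers past the threshold. Alternatives were another posterior limit, no placement, complete genes, 1 probe per gene, scaling, no dye term, array weights, each array left out and each orientation alone.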

Additional observations from a re-analysis of the deposited data

How the results depend on the processing

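The ratios of the 5 genes kept their sign in all settings run on placed values. With 1 array left out they ran from 2.90 to 3.36 for Noct, -0.81 to -0.53 for Bhlhe40, -0.84 to -0.63 for Tef, 0.29 to 0.62 for Npas2 and 0.34 to 0.65 for Arntl. Npas2 was the least steady, at 0.81 on the arrays with the CL-316,243 pool in channel 2 alone and 0.16 on those with it in channel 1. At a posterior limit of 0.5 Npas2 was at 0.30, with its value of -0.27 on array 4 included. There 3 of the 5 clock genes kept 1 sign, against 4 in the main fit. With rows as deposited, Noct was at 0.026, Bhlhe40 at 0.086, Npas2 at -0.19, Arntl at -0.11, Tef at -0.69, the 1 clock gene close to its placed ratio, Myc at -0.059, Svs4 at 0.031 and Svs5 at 0.036. No gene passed limma in that setting (0, against 489 at an unadjusted p under 0.05), no orientation term (0, against 495 unadjusted) and no list gene (0, against 1 unadjusted), and 0 of the 5 clock genes kept 1 sign.

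Over all genes, 394 of 12907 passed with all arrays. With 1 array left out, between 125 (without array 5, 11839 tested) and 363 (without array 3, 8090 tested) passed. Without array 1 it was 148 of 8057 and without array 4 it was 212 of 12860. Array weights gave 925, the arrays with the CL-316,243 pool in channel 2 alone 219 and those with it in channel 1 alone 55. Of 94 tested list genes 7 passed with all arrays. With 1 array left out it was between 1 (of 54 without array 1, of 83 without array 5) and 8 (of 91 without array 2). Without array 3 it was 3 of 51 and without array 4 it was 4 of 93. It was 2 of 49 among genes with values on all arrays, 17 with array weights and 0 in the channel 1 orientation alone (15 unadjusted). Array weights raised the orientation term from 1 to 5 genes. Restricting to genes with values on all arrays left 1 of the 5 clock genes, Noct, with 1 sign, since Bhlhe40, Tef and Npas2 drop out. One core loop gene (1) passed with a posterior limit of 0.5 and 1 in the channel 2 orientation alone, given above. Where arrays or genes dropped out, fewer genes could be tested; the cause of other shifts was not tested. No paired analysis was possible because the dye orientations share no array number. Each ratio already compares the pools within an array.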
